A study of Rattus norvegicus with 6 samples.

Results

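The genes described here are 42 genes of the cell cycle and of DNA replication, out of 18420 genes in the expression table of rat chondrocytes in culture. They were chosen by name, as 15 genes that govern the passage from G1 into S phase, 10 genes of DNA replication and 17 genes of mitosis, and the rule for the choice used no expression value, although results of these data were known when it was made. Poly(A) RNA was sequenced from primary chondrocytes of the knee and hip cartilage of male Sprague-Dawley rats, at the third passage, in medium with serum. In the TNF-α group the cells received 10 ng/mL of this inflammatory cytokine for 6 h, and in the TNF-α+NFL group the same treatment was followed by 24 h with NFL, a lysate made by freezing and thawing Nanofat (here the cells obtained from abdominal fat by collagenase digestion). Each group had 3 replicates. All 6 libraries therefore came from cells exposed to TNF-α. By the stated lengths of treatment the groups also differed in time, 6 h against 30 h, so that NFL and elapsed time cannot be told apart. The time of harvest itself is not stated. Untreated cells were not analysed here. The study calls the replicates of a group independent and biological, but neither it nor the labels say whether they came from separate animals, so the p-values measure only the spread between these samples.

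Cell division is driven by cyclin-dependent kinases. D-type cyclins with Cdk4 and Cdk6, then E-type cyclins with Cdk2, phosphorylate the retinoblastoma protein Rb1 and so release E2F transcription factors, which switch on the genes of DNA synthesis. Inhibitors of the INK4 family (Cdkn2a, Cdkn2b, Cdkn2c) block Cdk4 and Cdk6, and Cdkn1a (p21) and Cdkn1b (p27) restrain Cdk2, the former as a target of the tumour suppressor p53. Chondrocytes divide rarely in adult cartilage but proliferate in culture, and the study also assayed the proliferation of these cells under NFL. The question here is whether transcripts of the division machinery differed between the groups.

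The deposited estimated counts summed to between 19344893 and 19725135 per library, and every member had at least 129.66 estimated counts in each library. TNF-α replicate 1 stood apart from the rest: fibronectin (Fn1), the gene with most counts, took 4.46% of its total against 3.41% to 3.59% elsewhere. The chondrocyte label was checked against its defining markers, which differed widely in level. Prg4 (495 to 657 FPKM, fragments per kilobase of transcript scaled to depth) and Col11a1 (210 to 265 FPKM) were abundant, while the other 8 of the 10 were at most 4.93 FPKM in any library, among them Chad at 0.12 to 0.34 FPKM and Cnmd at 0.14 FPKM or less. Sox9 was at 2.05 to 2.55 FPKM, Acan at 2.34 to 3.04 FPKM, and Col2a1 at 4.03, 3.69 and 4.12 FPKM in the TNF-α libraries and 4.37, 4.71 and 4.80 FPKM in the TNF-α+NFL libraries. Col2a1 was thus above the TNF-α libraries in every TNF-α+NFL library, and so was Col11a1. In edgeR's test Col2a1 had an unadjusted p of 0.0067 and an adjusted p of 0.22, and Col11a1 had 0.00034 and 0.052. The groups overlapped for the other markers tested. Of these, Prg4, Hapln1 and Comp had log2 fold changes (TNF-α+NFL minus TNF-α) of -0.14, -0.084 and -0.077. Sox9, Acan, Matn3 and Chad were above 0, at 0.049, 0.090, 0.016 and 0.68. The summed level of the 7 macrophage markers in the table, out of 10 listed and mostly from Cd68 and Cd14, was 54.7 to 56.7 FPKM in the TNF-α group and 48.8 to 51.0 FPKM in the TNF-α+NFL group, with C1qb at or under 3 counts in every library. Cd14 was lower in every TNF-α+NFL library, with an unadjusted p of 0.0031 and an adjusted p of 0.16 in edgeR's test. Cd68 overlapped. TNF-α replicate 1 stood apart here too, with 40 counts of Csf1r against 1 to 7 in the other libraries, 14.95 of Lyz2 against 0, 7 of Ptprc against at most 2 and 6 of Itgam against at most 2. The 8 adipocyte markers summed to at most 20.3 FPKM in the TNF-α group and 22.7 FPKM in the TNF-α+NFL group, with Lep at or under 3 counts, and the endothelial and blood lists stayed under 1 FPKM in all libraries. The part of these markers in the results below was not tested. In the study's own supplementary comparisons the groups with and without NFL stand, for the genes listed there, in the opposite order to the sample labels. Groups were taken from the labels, and no measured value was used to choose between the orders. Every direction given below is that of the libraries as labelled, and would turn round under the other order.

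No member passed an adjusted p of 0.05 between the groups, and the smallest p-values belonged to inhibitors of the G1 kinases. With edgeR's quasi-likelihood test and Benjamini-Hochberg adjustment over the 13250 genes tested, 0 of the 42 members were called in either direction, beside 54 genes higher in the TNF-α+NFL group (0.408% of those tested) and 27 lower (0.204%). At an unadjusted p of 0.05, 8 members were lower in the TNF-α+NFL group (Cdkn2b, Cdkn2a, Cdkn1a, Ccnd1, Cdk4, Tyms, Ccnb2 and Tpx2) and 1 was higher (Rrm1), where 5.45% of all genes were lower and 5.66% higher at that threshold. Of the 8, 5 were among the 15 G1/S genes, 1 among the 10 replication genes and 2 among the 17 mitosis genes. The 3 replicates of the TNF-α+NFL group lay entirely below those of the TNF-α group for 6 members and entirely above for 2, against 8.17% and 8.66% of all genes. All 42 members passed the filter on low counts.

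The count of calls depended on the tool and on 1 library. DESeq2's Wald test called 3 members, all lower, Cdkn2a, Cdkn1a and Ccnd1, where it called 0.664% of all genes higher and 0.377% lower. With limma-voom 0 members were called, beside 0.423% of genes higher and 0.211% lower. Without TNF-α replicate 1, edgeR called 6 members, all lower, Cdkn2a, Cdkn1a, Cdkn2b, Ccnb2, Ccnd1 and Cdk4, and the calls over all genes went up to 460 higher (3.43%) and 470 lower (3.51%). Leaving out any other single library called none. The count of 8 members lower at an unadjusted p was 4 without TNF-α replicate 2, and 5 without either TNF-α+NFL replicate 2 or TNF-α+NFL replicate 3. The share of all genes at that threshold was not counted in these fits. At the adjusted threshold they called 0.0522%, 0.0373% and 0.0448% of all genes lower, in that order. In bulk RNA of this kind, fewer cells expressing a gene and less RNA per cell cannot be told apart.

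**Figure D1:**
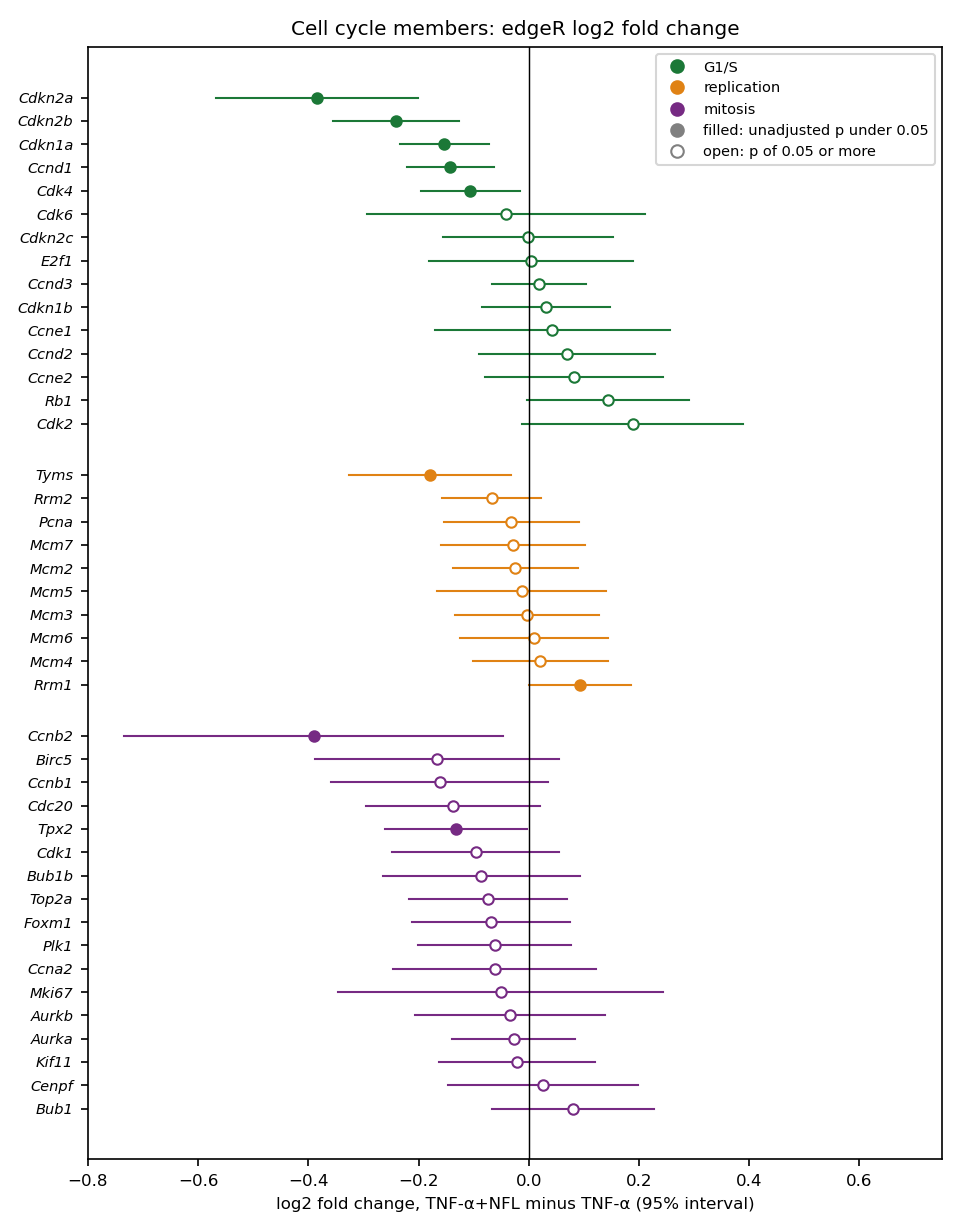
The edgeR log2 fold change of each of the 42 members (x axis, TNF-α+NFL minus TNF-α, with its 95% interval), grouped into G1/S, replication and mitosis genes and ordered within each group. Filled points have an unadjusted p under 0.05; their intervals lie wholly below 0 for Cdkn2a, Cdkn2b, Cdkn1a, Ccnd1, Cdk4, Tyms, Ccnb2 and Tpx2 and wholly above 0 for Rrm1, and the MCM genes lie near 0.

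The inhibitors of the G1 kinases split by gene. Cdkn2a, Cdkn2b and Cdkn1a had lower values in every library of the TNF-α+NFL group, and Cdkn1b and Cdkn2c did not separate. Cdkn2a and Cdkn2b are neighbours on chromosome 5, with RefSeq starts 26899 bases apart in GRCr8. Only 1 start was taken for each gene, and any other start of a gene was not examined. The 300 bases around the start of each of the 3 genes (250 before and 50 after it, RefSeq, build GRCr8) are shown because these members had the smallest p-values. Capitals mark GC boxes (GGGCGG on either strand) and CHR elements (the cell cycle homology region, TTTGAA or TTCGAA on either strand).
Cdkn2a, chr5:109107907-109108206, minus strand: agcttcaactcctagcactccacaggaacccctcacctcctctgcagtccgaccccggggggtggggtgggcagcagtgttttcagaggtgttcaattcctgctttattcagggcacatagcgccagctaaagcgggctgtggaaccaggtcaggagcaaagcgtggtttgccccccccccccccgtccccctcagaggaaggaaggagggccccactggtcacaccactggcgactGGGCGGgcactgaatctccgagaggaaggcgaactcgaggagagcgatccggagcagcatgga
Cdkn2b, chr5:109134806-109135105, minus strand: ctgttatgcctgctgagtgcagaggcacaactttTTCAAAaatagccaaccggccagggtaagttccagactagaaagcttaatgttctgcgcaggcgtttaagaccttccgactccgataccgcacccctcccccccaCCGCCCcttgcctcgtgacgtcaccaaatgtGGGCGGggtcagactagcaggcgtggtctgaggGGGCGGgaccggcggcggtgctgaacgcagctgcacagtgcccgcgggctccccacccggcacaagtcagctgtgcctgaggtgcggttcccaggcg
Cdkn1a, chr20:7150682-7150981, plus strand: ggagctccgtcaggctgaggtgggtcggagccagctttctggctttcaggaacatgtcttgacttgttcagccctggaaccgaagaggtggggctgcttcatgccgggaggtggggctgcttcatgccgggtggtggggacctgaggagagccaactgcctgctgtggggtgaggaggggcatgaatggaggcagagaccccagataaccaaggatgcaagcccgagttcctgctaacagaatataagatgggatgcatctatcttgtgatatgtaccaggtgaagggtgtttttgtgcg
The Cdkn2a window held 1 GC box, the Cdkn2b window 3 GC boxes and 1 CHR element, and the Cdkn1a window none of the letters searched for.

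Cdkn2a encodes p16, an inhibitor of Cdk4 and Cdk6, and, from another reading frame, the p53 activator ARF. Its normalized counts (CPM, counts scaled to a common library size) were 50.04, 54.4 and 64.0 in the TNF-α libraries and 43.6, 41.4 and 44.1 in the TNF-α+NFL libraries. The groups did not overlap, and TNF-α replicate 3 stood highest. The log2 fold change was -0.38 ± 0.082 (SE, n = 3 per group), a difference of -23.4%, with an adjusted p of 0.084 in edgeR's test. Over the 14 alternative settings its adjusted p ranged from 0.00043 to 0.39. Gene counts cannot separate its products, and Cdkn2a had the shortest transcript of the members, 682 bases as implied by its count and FPKM.

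Cdkn2b encodes p15, an INK4 inhibitor known as a target of TGF-β signalling. Its CPM were 46.0, 48.2 and 50.9 in the TNF-α libraries against 40.3, 42.2 and 40.2 in the TNF-α+NFL libraries. The highest TNF-α+NFL library thus lay below the lowest TNF-α library. Its log2 fold change was -0.24 ± 0.053 (SE), with an adjusted p of 0.066, the lowest of all members, and it ranked 104 by p among the 13250 genes. Its adjusted p ranged from 0.0014 to 0.36 over the alternatives. Its estimated counts were fractional in all 6 libraries, so that some of its reads were shared with a transcript of another gene.

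Cdkn1a was the most abundant inhibitor. Its CPM were 333, 346 and 351 in the TNF-α libraries and 306, 306 and 314 in the TNF-α+NFL libraries, again without overlap. The log2 fold change was -0.15 ± 0.038 (SE), or -10.1%, with an adjusted p of 0.10 that ranged from 0.0012 to 0.47 over the alternatives. Cdkn1b had a log2 fold change of 0.031 ± 0.053 and Cdkn2c one of -0.0016 ± 0.071, and the replicates of the groups overlapped for both. With 3 samples against 3 the exact two-sided permutation test cannot go below 0.10, the value it gave for Cdkn2a, Cdkn2b and Cdkn1a.

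**Figure D2:**
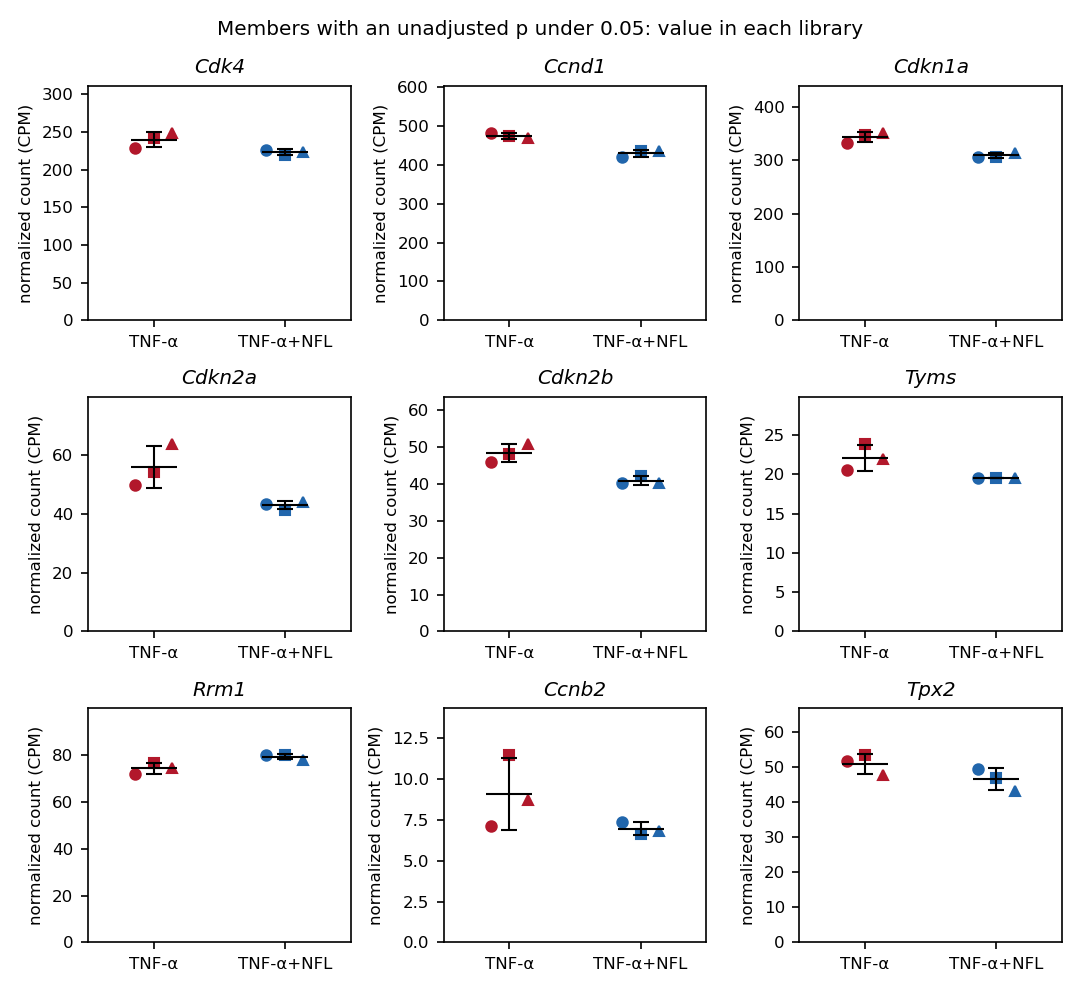
Normalized counts (CPM, y axis from 0) in each library for the 9 members with an unadjusted p under 0.05; points are the replicates (circle 1, square 2, triangle 3) and bars the mean and SD of 3. The groups separate for Cdkn2a, Cdkn2b, Cdkn1a, Ccnd1, Cdk4, Tyms and Rrm1, and overlap for Ccnb2 and Tpx2.

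Among the activators of G1, cyclin D1 and its kinase were also lower, so that the genes below 0 were not inhibitors alone. Ccnd1, the cyclin that responds to growth factors, had 482, 473 and 467 CPM in the TNF-α libraries against 419, 434 and 435 in the TNF-α+NFL libraries, with no overlap. Its log2 fold change was -0.14 ± 0.036 (SE), with an adjusted p of 0.12 that ranged from 0.0054 to 0.54 over the alternatives. Its counts were fractional in all libraries, as were those of Cdk6. Cdk4 had 228, 243 and 249 CPM against 227, 219 and 224 CPM. The groups separated by a narrow margin, between TNF-α replicate 1 and TNF-α+NFL replicate 1. Cdk4 had a log2 fold change of -0.11 ± 0.041, with an adjusted p of 0.35.

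The other cyclins and kinases of G1 overlapped, with 1 exception. Ccnd2 had a log2 fold change of 0.070 ± 0.074 (SE), Ccnd3 of 0.019 ± 0.040 and Cdk6 of -0.041 ± 0.11. Cdk2, the partner of cyclins E and A, had 7.75, 8.05 and 8.75 CPM in the TNF-α libraries and 8.89, 9.22 and 9.88 in the TNF-α+NFL libraries. These did not overlap, but the gap was small beside the spread, and the log2 fold change was 0.19 ± 0.093 with an unadjusted p of 0.063 and an adjusted p of 0.49. The cyclins that activate Cdk2 gave log2 fold changes of 0.043 ± 0.099 (Ccne1) and 0.082 ± 0.074 (Ccne2).

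Rb1, the substrate of these kinases, had 33.2, 30.5 and 30.2 CPM in the TNF-α libraries and 36.2, 36.5 and 31.2 in the TNF-α+NFL libraries. TNF-α+NFL replicate 3 lay within the range of the TNF-α group. The log2 fold change was 0.14 ± 0.068 (SE), with an unadjusted p of 0.054 and an adjusted p of 0.46. E2f1, the activating E2F, was level between the groups, at 11.7, 13.01 and 12.8 CPM against 13.7, 12.3 and 11.6, and its log2 fold change of 0.0038 had a 95% interval from -0.18 to 0.19. Across the 15 G1/S genes 8 were higher and 7 lower, and 5 of the 15 changed sign when 1 library was left out, with a median log2 fold change of 0.0038 beside -0.0035 over all genes tested.

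The genes of DNA replication differed little. The 6 subunits of the MCM helicase, which opens DNA at origins, had log2 fold changes between -0.029 (Mcm7) and 0.021 (Mcm4), the replicates overlapped for all 6, and their 95% intervals reached no lower than -0.17 and no higher than 0.14. Mcm2, for example, was at 41.1, 38.8 and 40.8 CPM in the TNF-α libraries and 39.2, 41.3 and 38.2 in the TNF-α+NFL libraries. Pcna, the sliding clamp of the polymerases, was at 47.1, 53.9 and 49.3 CPM against 47.6, 48.3 and 51.2 CPM. Its log2 fold change was -0.032 ± 0.057 (SE).

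The replication members with an unadjusted p under 0.05 were 2 enzymes that make DNA precursors, 1 in each direction, which is 10% of the group each way against 5.45% of all genes lower and 5.66% higher. Tyms, which makes thymidylate, had 20.5, 23.9 and 21.9 CPM in the TNF-α libraries and 19.6, 19.5 and 19.6 in the TNF-α+NFL libraries. All TNF-α libraries were above the TNF-α+NFL libraries, and the latter hardly varied. The log2 fold change was -0.18 ± 0.068 (SE), with an unadjusted p of 0.021 and an adjusted p of 0.33. Rrm1, the large subunit of ribonucleotide reductase, had 71.8, 76.5 and 74.5 CPM against 79.97, 79.8 and 77.9 CPM. Here every TNF-α+NFL library was the higher, with a log2 fold change of 0.093 ± 0.043, an unadjusted p of 0.049 and an adjusted p of 0.45. With DESeq2's Wald test, with limma on log2(FPKM + 1), and without TNF-α+NFL replicate 1 or TNF-α+NFL replicate 2, no member was higher at the unadjusted threshold. Rrm2, the subunit that limits the same enzyme in S phase, had a log2 fold change of -0.067 ± 0.042 and overlapped. The median of the 10 replication genes was -0.019, with 7 lower and 3 higher, and 7 of the 10, Pcna and all MCM genes, changed sign when 1 library was left out.

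The start regions of Tyms, Rrm1 and Mcm5 are given as examples of the letters found at replication genes, and are not a contrast between genes that differed and genes that did not. Capitals mark E2F sites (TTTCCCGC, TTTCGCGC, TTTGCCGC or TTTGGCGC), CCAAT boxes (CCAAT), CHR elements and GC boxes, each on either strand.
Tyms, chr9:120776034-120776333, minus strand: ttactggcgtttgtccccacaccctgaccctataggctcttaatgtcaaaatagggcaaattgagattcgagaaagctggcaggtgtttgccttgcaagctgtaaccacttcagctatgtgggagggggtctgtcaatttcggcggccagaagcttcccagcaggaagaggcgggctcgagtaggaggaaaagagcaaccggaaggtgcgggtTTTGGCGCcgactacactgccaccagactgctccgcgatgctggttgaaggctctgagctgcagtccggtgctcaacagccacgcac
Rrm1, chr1:166235654-166235953, plus strand: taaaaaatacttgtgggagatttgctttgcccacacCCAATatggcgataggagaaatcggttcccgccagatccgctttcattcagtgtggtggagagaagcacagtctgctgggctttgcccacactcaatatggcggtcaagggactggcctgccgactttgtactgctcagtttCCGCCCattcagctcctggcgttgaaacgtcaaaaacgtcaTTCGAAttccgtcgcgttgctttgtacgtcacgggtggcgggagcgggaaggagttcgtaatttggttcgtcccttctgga
Mcm5, chr19:13488563-13488862, plus strand: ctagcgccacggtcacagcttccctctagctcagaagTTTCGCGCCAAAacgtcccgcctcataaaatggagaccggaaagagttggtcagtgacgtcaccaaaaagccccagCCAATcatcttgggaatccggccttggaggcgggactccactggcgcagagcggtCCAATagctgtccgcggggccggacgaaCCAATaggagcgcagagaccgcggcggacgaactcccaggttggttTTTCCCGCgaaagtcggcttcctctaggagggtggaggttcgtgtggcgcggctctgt
The Tyms window held 1 E2F site, the Rrm1 window 1 CCAAT box, 1 CHR element and 1 GC box, and the Mcm5 window 3 E2F sites, of which 2 overlap, and 3 CCAAT boxes. Mcm5 had a log2 fold change of -0.013 ± 0.071 (SE).

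The replicates of the groups overlapped for all 17 mitosis genes, as for 83.2% of all genes. Of the 17, 15 had a log2 fold change below 0, with a median of -0.068, where 51.8% of all genes were below 0. The sign of 5 of the 17 turned when 1 library was left out. Cyclin B2 (Ccnb2), a partner of Cdk1, had the largest difference of all members by a narrow margin, a log2 fold change of -0.390 against -0.384 for Cdkn2a. Ccnb2 was at 7.12, 11.5 and 8.75 CPM in the TNF-α libraries and 7.40, 6.66 and 6.82 in the TNF-α+NFL libraries. It was high in TNF-α replicate 2, on which its rank rests, while TNF-α replicate 1 lay within the range of the other group. The log2 fold change was -0.39 ± 0.16 (SE), with an unadjusted p of 0.030 and an adjusted p of 0.38. Its 2 CHR elements and 3 CCAAT boxes, the arrangement known from many genes of late cell cycle expression, stand in capitals in its start region.
Ccnb2, chr8:79981609-79981908, minus strand: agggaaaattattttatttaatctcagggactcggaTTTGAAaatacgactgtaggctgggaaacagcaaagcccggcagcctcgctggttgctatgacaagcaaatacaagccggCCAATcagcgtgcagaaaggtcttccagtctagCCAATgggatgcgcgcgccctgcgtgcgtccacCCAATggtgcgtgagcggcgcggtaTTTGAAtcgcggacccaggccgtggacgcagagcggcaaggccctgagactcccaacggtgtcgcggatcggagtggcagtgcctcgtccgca

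The remaining cyclins and the kinase of mitosis were highest in the same library. Cdk1, which drives entry into mitosis, was at 29.8, 35.8 and 32.5 CPM in the TNF-α libraries and 30.0, 32.5 and 29.3 in the TNF-α+NFL libraries, a log2 fold change of -0.096 ± 0.070 (SE). Ccnb1 was at 24.0, 31.0 and 26.6 CPM against 24.8, 25.7 and 22.6 CPM, a log2 fold change of -0.16 ± 0.090 with an unadjusted p of 0.098. Ccna2, the cyclin of S phase and G2, gave -0.062 ± 0.083. For all 4 genes the highest library was TNF-α replicate 2. The counts of Ccna2, Ccnb1 and Ccnb2 were fractional in all libraries.

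The mitotic kinases lay close to 0, with log2 fold changes of -0.062 ± 0.064 (SE) for Plk1, -0.028 ± 0.052 for Aurka and -0.034 ± 0.080 for Aurkb. Cdc20, which activates the anaphase-promoting complex, had one of -0.14 ± 0.073 and an unadjusted p of 0.083. The spindle checkpoint kinase Bub1, at 0.080 ± 0.068, and its relative Bub1b, at -0.086 ± 0.083, stood on opposite sides of 0. Foxm1, a transcription factor of G2 and mitosis genes, had a log2 fold change of -0.068 ± 0.066.

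Among the genes of chromosomes and spindle, Tpx2, which activates Aurora A on the spindle, was at 51.6, 53.4 and 47.8 CPM in the TNF-α libraries and 49.4, 46.9 and 43.2 in the TNF-α+NFL libraries. TNF-α+NFL replicate 1 lay within the TNF-α range, and the log2 fold change was -0.13 ± 0.060 (SE) with an unadjusted p of 0.046 and an adjusted p of 0.44. Mki67, the usual marker of cycling cells, had fractional counts in all libraries and was at 144, 137 and 111 CPM against 129, 134 and 115 CPM. It varied more within the groups than between them, with a log2 fold change of -0.051 and a 95% interval from -0.35 to 0.24. Birc5 (survivin) had a log2 fold change of -0.17 ± 0.10, Top2a of -0.074 ± 0.066, Kif11 of -0.021 ± 0.066 and Cenpf of 0.025 ± 0.078.

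Many of the mitosis genes shared the library in which they were highest. TNF-α replicate 2 held the highest value for 9 of the 17 mitosis members (52.9%), 6 of the 10 replication members (60%) and 35 of 71 other mitosis genes (49.3%), against 15.8% of all genes tested. TNF-α+NFL replicate 3 held the lowest value for 9 of the 17 mitosis members (52.9%) and 30 of the 71 (42.3%), against 13.5% of all genes. The median deviation of the 17 members from their own means was 0.050, 0.087 and -0.025 in the TNF-α libraries and -0.013, 0.028 and -0.11 in the TNF-α+NFL libraries, on the log2 CPM scale. The groups thus overlapped, and without TNF-α replicate 2 the median log2 fold change of the mitosis members was -0.030. Without TNF-α+NFL replicate 3 it was -0.034. The kinase inhibitors differed from this, with medians of 0.031, 0.089 and 0.11 in the TNF-α libraries and -0.089, -0.073 and -0.053 in the TNF-α+NFL libraries. These medians restate the separation of Cdkn2a, Cdkn2b and Cdkn1a, 3 of the 5 inhibitors, and Cdkn1b and Cdkn2c overlapped.

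**Figure D3:**
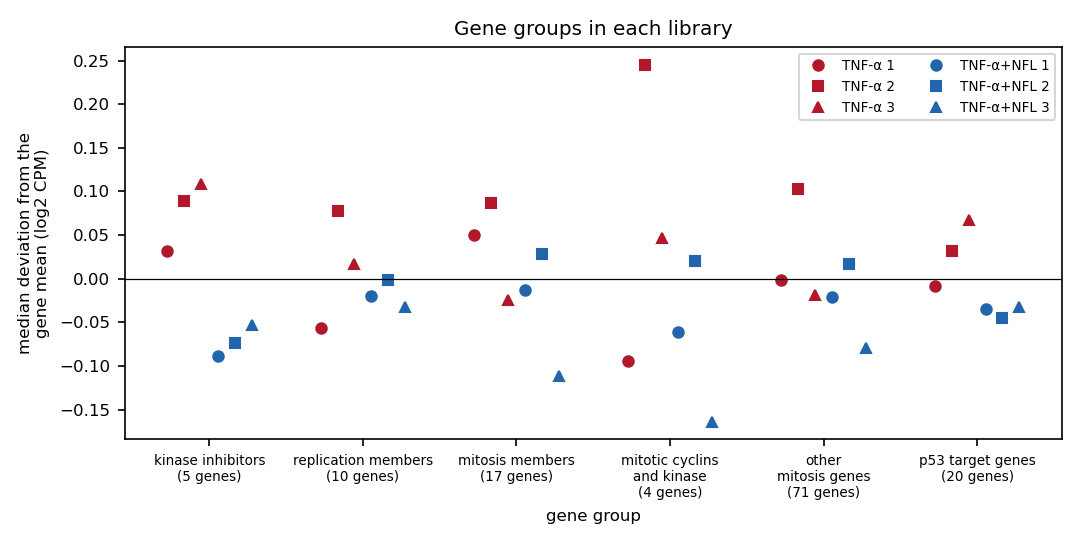
Median deviation of the genes of 6 groups from each gene's own mean (y axis, log2 CPM), for the 3 TNF-α libraries (red) and the 3 TNF-α+NFL libraries (blue), with a symbol for each replicate number. The libraries of the groups separate for the kinase inhibitors, of which 3 of 5 separate singly, and for the p53 target genes. They overlap for replication and mitosis, where TNF-α replicate 2 is highest.

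Transcript length moved with the libraries. Over 12575 genes with an implied length, the log2 difference between TNF-α replicate 1 and TNF-α replicate 3 correlated with length (Spearman's rho 0.45, across genes, which are not independent replicates), and over the 42 members rho was 0.26. The group difference correlated with length at rho 0.31 over those genes and 0.30 over the members. With this trend removed 4 members were called, all lower, Ccnd1, Cdkn2a, Cdkn2b and Cdkn1a, beside 1.14% of all genes higher and 0.642% lower. The longest members, Mki67 at 10393 bases and Cenpf at 10212 bases, were lowest in TNF-α replicate 3.

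Other genes of the same processes came from lists written by role. Of 71 other mitosis genes tested, 20 were higher and 51 lower, with a median log2 fold change of -0.062, and 3 were lower at an unadjusted p of 0.05 (4.23%, against 5.45% of all genes). Gtse1, a microtubule-binding protein that also restrains p53 in G2, was the only one to pass an adjusted p of 0.05. It fell from 63.4, 61.5 and 66.3 CPM in the TNF-α libraries to 53.8, 55.1 and 51.1 CPM in the TNF-α+NFL libraries. The groups were far apart for their spread, with a log2 fold change of -0.26 ± 0.049 (SE) and an adjusted p of 0.034. This call did not survive leaving out any library other than TNF-α replicate 1, and its adjusted p ranged from 0.0017 to 0.22 over the alternatives. Racgap1, which is needed for cytokinesis, had a log2 fold change of -0.26 ± 0.066 with an adjusted p of 0.12. On the other side of 0, Cdc25b, an activator of Cdk1, had 0.14 and the kinetochore scaffold Knl1 had 0.12.

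Of 29 other G1/S genes, 2 were higher (6.90%) and 1 lower (3.45%) at an unadjusted p of 0.05, close to the 5.66% and 5.45% of all genes. E2f6, a repressor among the E2F factors, had 48.2, 48.9 and 53.9 CPM in the TNF-α libraries and 59.3, 56.8 and 55.6 in the TNF-α+NFL libraries, with no overlap. Its log2 fold change was 0.18 ± 0.053 (SE) with an adjusted p of 0.19. Cables1, a Cdk-binding protein, had a log2 fold change of 0.24 ± 0.077 with an adjusted p of 0.23, and Ccng1 and Ccng2, cyclins tied to growth arrest, had -0.11 each. Of 56 other replication genes, 3 were lower (5.36%, against 5.45% of all genes) and 0 higher at that threshold. Rnaseh2a, a subunit of the enzyme that removes RNA from DNA, had a log2 fold change of -0.23 ± 0.071, and Gins1, of the replicative helicase complex, had -0.47 ± 0.16 at a low level, with 3.35, 3.796 and 3.24 CPM against 2.25, 2.41 and 2.85 CPM. Higher in the TNF-α+NFL group, but past no threshold, were Orc2 of the origin recognition complex, at 0.12, and the chromatin assembly subunit Chaf1b, at 0.29.

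Because Cdkn1a is a p53 target, 20 other p53 target genes were set beside it, of which Ccng1 and Rrm2b also belong to the lists above. Of these 12 were lower and 8 higher, with a median log2 fold change of -0.043. At an unadjusted p of 0.05, 8 were lower (40%, against 5.45% of all genes) and 0 higher, and none passed the adjusted threshold in edgeR, DESeq2 or limma-voom. The 8 were Gadd45a, Sesn2, Bax, Mdm2, Ccng1, Phlda3, Gdf15 and Bbc3. Gadd45a, a stress-induced inhibitor of the cycle, had 137, 149 and 149 CPM in the TNF-α libraries and 131, 130 and 127 in the TNF-α+NFL libraries. The groups did not overlap, and the log2 fold change was -0.16 ± 0.044 (SE) with an adjusted p of 0.15. Sesn2, a sestrin of the stress response, had -0.17 ± 0.057 with an adjusted p of 0.25. Mdm2, the ligase that degrades p53, had -0.11 ± 0.043, and Bax, a mediator of cell death, -0.15 ± 0.050. For 7 of the 20 all TNF-α+NFL libraries were below all TNF-α libraries, against 8.17% of all genes. Rrm2b and Btg2 stood on the other side of 0, at 0.15 ± 0.15 and 0.022 ± 0.041. The count of 8 lower genes was 2 without TNF-α replicate 3, 3 without TNF-α+NFL replicate 1 and 4 without TNF-α replicate 2, TNF-α+NFL replicate 2 or TNF-α+NFL replicate 3. The share of all genes at that threshold was not counted in these fits. At the adjusted threshold they called from 0% (without TNF-α+NFL replicate 1) to 0.0746% (without TNF-α replicate 3) of all genes lower, against 0.204% with all libraries. Without TNF-α replicate 1 edgeR called 5 of the genes at the adjusted threshold, all lower, where it called 3.51% of all genes lower.

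**Figure D4:**
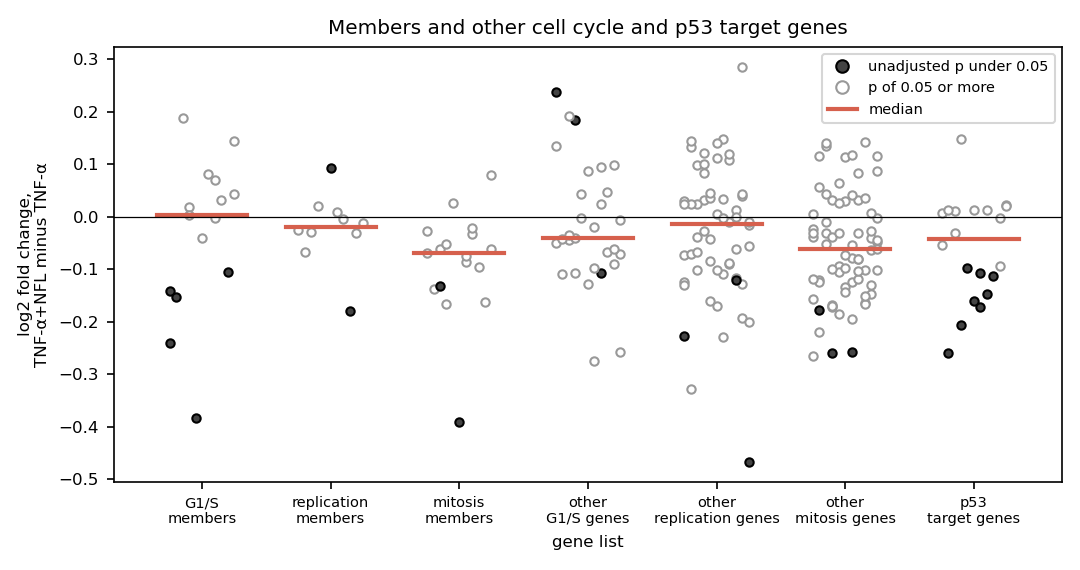
The edgeR log2 fold change (y axis, TNF-α+NFL minus TNF-α) of each gene in the 3 groups of members and in the lists of other G1/S, replication, mitosis and p53 target genes; filled points have an unadjusted p under 0.05 and the red line is the median. The medians of mitosis members, other mitosis genes and p53 target genes lie at -0.068, -0.062 and -0.043, and 8 of the 20 p53 target genes are filled, all below 0.

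The levels of the members, compared per length in FPKM over all 6 libraries, set the paralogs of each role in order. Cdk4 was at 181 ± 9.69 FPKM (SD, n = 6), Cdk6 at 10.1 ± 1.03 and Cdk2 at 3.89 ± 0.33, with no overlap between neighbours and a 46.6-fold span. Ccnd1 led the D-type cyclins at 117 ± 6.30 FPKM, before Ccnd3 at 57.6 and Ccnd2 at 20.0, again without overlap. Cdkn1a, at 168 ± 10.0 FPKM, was close to Cdk4 in level, followed by Cdkn2a at 72.7, Cdkn1b at 26.9, Cdkn2b at 20.4 and Cdkn2c at 12.1. The 6 MCM genes, whose products form one ring, lay within 2.11-fold of each other, from Mcm4 at 15.6 FPKM to Mcm3 at 7.38 FPKM, and the ranges over libraries overlapped between Mcm4 and Mcm7, Mcm2 and Mcm6, and Mcm5 and Mcm3, although within each of the 6 libraries the first of each pair was the higher.

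Among the replication enzymes Rrm2 was highest at 52.4 FPKM, then Pcna at 43.3, Rrm1 at 25.3 and Tyms at 14.0. In mitosis Cdk1 was at 26.7 FPKM and Ccna2 at 15.1, while Ccnb1 at 7.82 and Ccnb2 at 5.50 had overlapping ranges, with Ccnb1 the higher within each library. The kinases were ordered Aurka (19.2 FPKM), Plk1 (13.3) and Aurkb (9.34), and Cdc20 at 18.5 FPKM was above Bub1 at 4.54 and Bub1b at 3.17. Birc5, Mki67 and Top2a were between 12.5 and 11.7 FPKM and overlapped, below Tpx2 at 17.2, and Kif11 and Cenpf overlapped at 4.24 and 4.09. Transcripts of every stage of the cycle were thus present in all 6 libraries, with Foxm1 at 4.45 FPKM and the regulators Rb1 and E2f1 at 7.40 and 4.72.

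**Figure D5:**
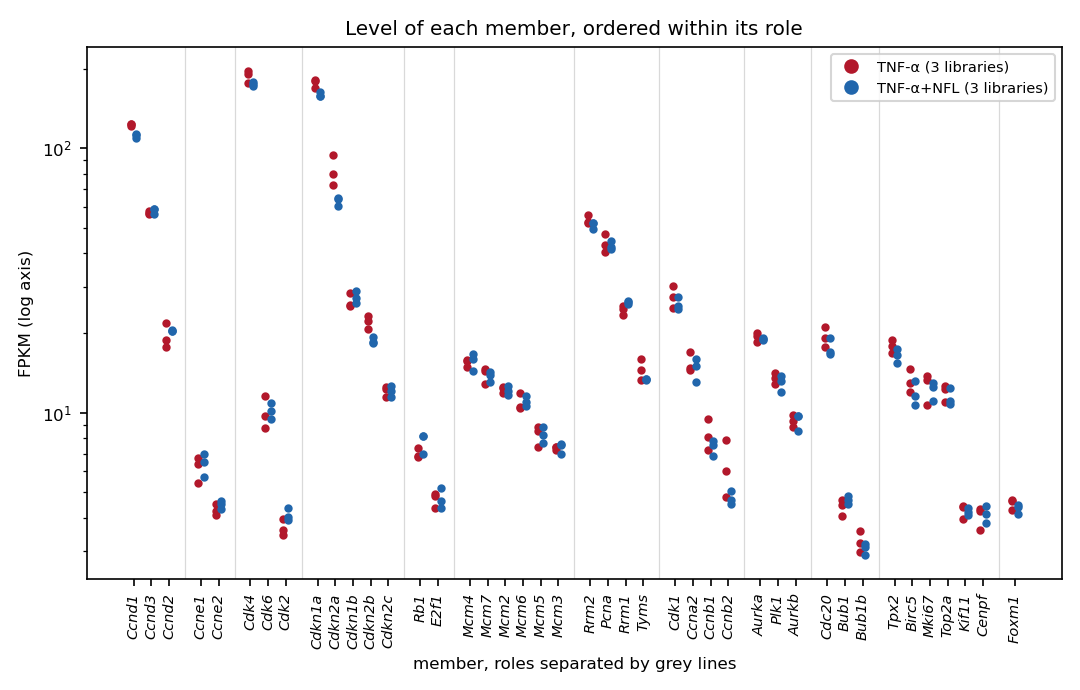
FPKM of each member (y axis, log scale) in the 3 TNF-α libraries (red) and the 3 TNF-α+NFL libraries (blue), ordered within each role, with grey lines between roles. Cdk4, Cdkn1a and Ccnd1 are above 100 FPKM and the MCM genes lie between 6.99 and 16.7 FPKM.

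The start regions of the members differed by stage in the letters they held. A RefSeq start region of 300 bases was matched for 31 of the 42 members. E2F sites, in the 4 forms given above, stood in 6 of 8 replication windows, 1 of 10 G1/S windows and 1 of 13 mitosis windows, where 2.14% of all 33469 windows of this length held one. CHR elements stood in 9 of the 13 mitosis windows, 3 of the 8 replication windows and 1 of the 10 G1/S windows, against 19.7% of all windows. CCAAT boxes were in 10 of 13, 6 of 8 and 3 of 10, against 37.5%, and 8 mitosis windows, 2 replication windows and 0 G1/S windows held both a CCAAT box and a CHR element, against 7.95%. GC boxes were common in all 3 groups, at 9 of 13, 6 of 8 and 9 of 10, against 33.1%, and the TATAAA box, in 14.2% of all windows, was in none of the members' windows. Of 124 matches in the members, 5 overlapped a match of another motif. These are matches of letters, on either strand, in a build other than that of the counts, and they do not show that a factor was bound.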

How the data were processed

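The study's authors aligned single-end reads of 50 bases from poly(A) RNA and quantified genes; the submitters' processing notes name HISAT2 2.0.4, Bowtie2 2.2.5, RSEM 1.2.12 and the build Rnor_6.0. The deposited table holds the estimated counts of each gene, with reads that match several transcripts divided among them, and FPKM, which the authors scaled to transcript length and depth. The TPM values the authors deposited beside them were not used. Between 27.3% and 28.0% of estimated counts were fractional per library. The authors' columns of fold changes and q-values between groups, in their supplementary table, were used for no value; only their order of the groups was compared with the labels.

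Estimated counts were rounded and analysed with edgeR 4.0.16 in R 4.3.3: filterByExpr kept 13250 of 18420 genes, libraries were scaled by TMM, and the groups of 3 were compared by the robust quasi-likelihood test (two-sided), with Benjamini-Hochberg adjustment over all genes tested and a threshold of 0.05. The common biological coefficient of variation was 6.39%. SE was the log2 fold change divided by the square root of F, and 95% intervals used the test's degrees of freedom. CPM are TMM-scaled. Values carry no interval for counting error beyond the spread of replicates. Alternatives were DESeq2 1.42.0 (its Wald test, and its size factors in edgeR), limma 3.58.1 (voom, and a trend fit on log2(FPKM + 1) for a mean FPKM of at least 0.5), other filters, a replicate block, removal of a length trend, and leaving out each library.

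The 42 members and all lists were chosen with earlier results of these data known. Members were described with full values where they had 1 of the 3 smallest p-values of their group in either direction or stand for a step of the cycle, and other genes where they passed the adjusted threshold or had 1 of the 2 smallest p-values of their list in either direction; others that appear by value complete a role or a count. Of the gene IDs 17068 matched RefSeq (GRCr8), from which the start regions came.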

Additional observations from a re-analysis of the deposited data

How the results depend on the processing

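The number of members past the adjusted threshold, 0 higher and 0 lower, stayed at 0 higher in all 14 alternatives. Members lower numbered 3 with DESeq2's Wald test, 4 with the length trend removed, 1 with no filter on low counts (Cdkn2b, adjusted p = 0.033), 1 with the replicate block (Cdkn2a, adjusted p = 0.042) and 0 to 6 with 1 library left out, 6 being without TNF-α replicate 1. At an unadjusted p of 0.05, the 1 member higher became 0 with DESeq2's Wald test, 2 with at least 10 counts in every sample, 2 with the length trend removed, 0 with limma on log2(FPKM + 1) and 0 to 2 with 1 library left out. The 8 members lower became 4 with limma on log2(FPKM + 1) and 4 to 9 with 1 library left out. The 8 p53 target genes lower became 5 with DESeq2's Wald test, 5 with the length trend removed and 5 with limma on log2(FPKM + 1). The cause was not tested, and the share of all genes at the unadjusted threshold was not counted in these alternatives.

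Over all genes, the 54 higher and 27 lower became 88 and 50 with DESeq2's Wald test, 151 and 85 with the length trend removed, 8 and 6 with limma on log2(FPKM + 1), 84 and 48 with no filter, and 25 and 9 with the replicate block. With 1 library left out they ranged from 5 to 460 higher and from 0 to 470 lower, the highest of both without TNF-α replicate 1. Neither the labels nor the study say whether the replicate numbers pair the samples. The deviations of same-numbered samples correlated at 0.030, -0.024 and 0.10, which cannot settle it. The block is given only as an alternative.

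The median log2 fold change of the G1/S members was 0.030 with the length trend removed, and the other medians moved by less than the spread between replicates. Pcna turned to 0.013 and Cenpf to -0.023 with the length trend removed. Of the 42 members, 17 had a log2 fold change that changed sign when 1 library was left out. Among the genes named by rule, those that turned ranged from -0.074 to 0.027 for Pcna, -0.024 to 0.080 for Mcm4, -0.022 to 0.072 for Mcm6, -0.055 to 0.080 for Cenpf, -0.064 to 0.059 for E2f1, -0.055 to 0.0016 for Mcm2, -0.15 to 0.026 for Mki67 and -0.0038 to 0.051 for Btg2. Of all 40 genes so named, 305 of 320 fold changes under other settings and 212 of 240 with 1 library left out kept their direction and their side of the threshold.

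Groups of 3 limit what small differences can show, and by the stated lengths of treatment NFL and elapsed time cannot be told apart.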
